A study of Mus musculus with 12 samples.

Results

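The standard proteasome subunit genes are the mouse genes named Psma, Psmb, Psmc and Psmd with a number, less the immunoproteasome genes Psmb8, Psmb9 and Psmb10. They were chosen by symbol among the protein_coding genes of GENCODE M21, and are 37 of the 35907 genes whose transcripts were measured. Of these, 16 encode the core particle (8 alpha-type and 8 beta-type subunits) and 20 belong to the regulatory particle (6 ATPases, 11 non-ATPase subunits and 3 chaperones that help to assemble it). The remaining gene, Psmc3ip, matches the symbol pattern but encodes a partner of a regulatory ATPase in meiotic recombination and no proteasome subunit, and it is given apart from both particles. All 37 passed the filter on low counts in each comparison.

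The proteasome is the barrel-shaped protease that degrades proteins tagged with ubiquitin in the cytosol and nucleus. Alpha subunits form its outer rings and gate the entrance, and beta subunits form the inner rings, where Psmb5, Psmb6 and Psmb7 carry the chymotrypsin-like, caspase-like and trypsin-like active sites. The regulatory particle caps the barrel, where non-ATPase subunits bind and deubiquitinate the substrate and ATPases unfold it. T cells take up proteasome synthesis when they are activated and divide, and in lymphoid cells the catalytic subunits are partly replaced by their immunoproteasome counterparts.

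RNA-seq was carried out on 12 libraries, with 3 in each of 4 groups named by genotype and stage. WT and TCF-1 cKO donors were adult mice on the C57BL/6 background, and the TCF-1 cKO donors were Tcf7 flox/flox with CD4cre, which removes the transcription factor TCF-1 from both CD4 and CD8 T cells because the Cd4 promoter is active in thymocytes that carry both markers. Pre-Tx libraries came from T cells sorted from donor spleen. Post-Tx libraries came from donor cells that bear H2Kb, sorted at day 7 from recipient spleen. The recipients were lethally irradiated BALB/c mice given donor CD3 T cells. By the study's transplant method they also received T cell-depleted bone marrow of WT C57BL/6 mice, whose cells bear H2Kb as well. Stage, host, irradiation of the host and the marrow graft thus differ together between Pre-Tx and Post-Tx and cannot be told apart. The labels call all 12 libraries CD4 T cells, whereas other text of the study names CD8 T cells for one stage or the other. The study gives the number of mice per condition but not which mice went into which library, and p-values measure only the spread between these libraries.

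Several measurements go against the labels and bear on what follows. Total counts ranged from 17103415 to 49486745 per library. They were 17103415 to 19691807 in WT Pre-Tx and 20183939 to 25756488 in TCF-1 cKO Pre-Tx. In WT Post-Tx they were 27109156 to 49486745, and in TCF-1 cKO Post-Tx 18022093 to 23098887. Depth thus did not overlap between the genotypes at either stage, in opposite directions, and its part in the results was not tested. In WT Pre-Tx, 21 B cell marker genes summed to 43096 to 45548 CPM against 4056 to 4844 for 14 T cell markers, and in TCF-1 cKO Pre-Tx to 46716 to 50588 against 2331 to 2600. In WT Post-Tx the B cell sum was 1886 to 1966 CPM and the T cell sum 9930 to 12332, and in TCF-1 cKO Post-Tx they were 2027 to 2168 and 7799 to 8122. Sums of 10 erythroid markers were 10959 to 26276 CPM in WT Pre-Tx and 4545 to 15195 in TCF-1 cKO Pre-Tx. In Post-Tx they were 714 to 1490 in WT and 1676 to 5794.5 in TCF-1 cKO. For 12 macrophage, monocyte and neutrophil markers the sums were 3793 to 5124, 4035 to 4296, 1668 to 2023 and 2365 to 3322 CPM in the same order. Before transplant Cd8a did not lie below Cd4 beyond the spread, at 154 ± 20.6 against 103 ± 42.9 CPM in WT libraries and 77.4 ± 5.39 against 78.2 ± 11.2 CPM in those labelled TCF-1 cKO (mean ± SD, n = 3 in each group here and below). Counts summed over all transcripts of Tcf7, the targeted gene, do not isolate the floxed exon and were 162 ± 44.3 CPM in WT and 159 ± 21.6 CPM in TCF-1 cKO before transplant (edgeR log2 fold change -0.04 ± 0.23, adjusted p = 0.924), and 158 ± 12.7 and 132 ± 19.6 CPM in Post-Tx (-0.66 ± 0.22, adjusted p = 0.0669). The genotype is therefore taken from the labels throughout, and in these bulk libraries fewer cells of a type and less RNA per cell cannot be told apart.

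RNA of the genes of both particles stood at higher levels in Post-Tx than in Pre-Tx libraries of either genotype. Expression levels are given in TPM, which corrects for transcript length and sums to the same total in each library. Summed over its 16 genes, the core particle was at 3353, 3784 and 3122 TPM in WT Pre-Tx, 3616, 4123 and 3910 in TCF-1 cKO Pre-Tx libraries, 6349, 6297 and 6471 in WT Post-Tx, and 6737, 5762 and 6405 in TCF-1 cKO Post-Tx. No Post-Tx library overlapped a Pre-Tx library, and the ratio of the group means of Post-Tx to Pre-Tx was 1.86 in WT and 1.62 in TCF-1 cKO. The genotypes overlapped at both stages, with a ratio of TCF-1 cKO to WT of 1.14 in Pre-Tx and 0.989 in Post-Tx. The 20 regulatory particle genes summed to 1295 ± 216 TPM in WT Pre-Tx, 1869 ± 43.6 in TCF-1 cKO Pre-Tx, 2903 ± 36.3 in WT Post-Tx and 2679 ± 234 in TCF-1 cKO Post-Tx. In Pre-Tx the 3 libraries labelled TCF-1 cKO, at 1872, 1824 and 1911 TPM, lay above the 3 WT libraries at 1221, 1539 and 1127, and in Post-Tx the genotypes overlapped. With 3 libraries against 3, an exact two-sided permutation test of such a sum cannot give a p under 0.1.

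**Figure D1:**
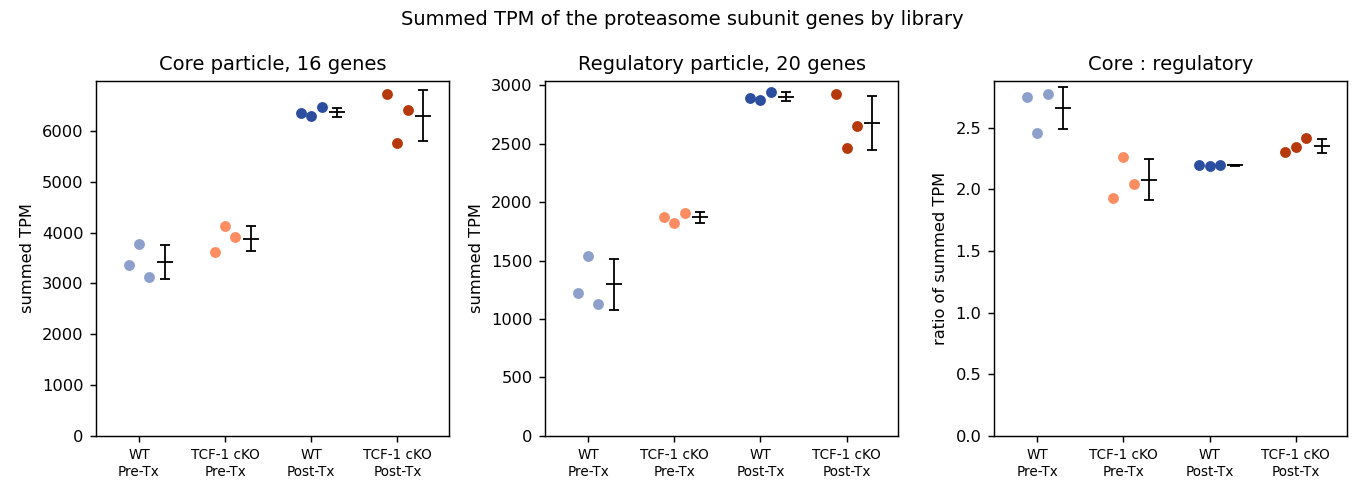
Summed TPM of the 16 core particle genes and of the 20 regulatory particle genes (vertical axes) in each of the 12 libraries, by group, with the ratio of the first to the second at the right. Points are libraries and bars are means with SD over 3 libraries. Post-Tx libraries lie above Pre-Tx libraries of the same genotype for both particles, and WT Pre-Tx is lowest for the regulatory particle, at 1127 to 1539 TPM.

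Within the core particle the level of single genes spanned a wide range, and the order at its ends was similar in the 4 groups. Psmb6, the caspase-like subunit, Psmb3, a non-catalytic beta subunit, and Psma7, an alpha subunit, were the 3 highest in each group, and Psmb7, the trypsin-like subunit, was the lowest once Psma8 and Psmb11 were set aside. In WT Pre-Tx the means were 731 ± 39.0 TPM for Psmb6, 623 ± 86.6 for Psmb3 and 570.0 ± 60.1 for Psma7, and 34.5 ± 10.2 TPM for Psmb7. Psmb6 and Psmb3 overlapped in that group, with single libraries at 687, 742 and 763 and 525, 657 and 688 TPM. In WT Post-Tx the order of the top 3 was Psmb3 at 1047 ± 111 TPM, Psma7 at 843 ± 46.3 and Psmb6 at 731 ± 139, with Psmb7 at 121 ± 3.37. In TCF-1 cKO Post-Tx Psma7 led at the gene level, at 1017 ± 121 TPM, of which 31.0% was in a retained-intron transcript. Its main protein_coding transcript, at 682.5 TPM, was below that of Psmb3, at 834 TPM. The highest of these core genes was 23.0 times the lowest in WT Pre-Tx, 10.2 times in TCF-1 cKO Pre-Tx, 8.66 times in WT Post-Tx and 9.13 times in TCF-1 cKO Post-Tx. The SD of log2 TPM over these core genes was 1.41 in WT Pre-Tx, against 0.992, 0.875 and 0.908 for the other groups in the same order, so the genes of the barrel were least even in WT Pre-Tx.

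In the regulatory particle, Psmd4, a receptor for ubiquitin chains, led both Pre-Tx groups, at 171 ± 34.7 TPM in WT and 196 ± 15.3 TPM in TCF-1 cKO, and Psmd8, a lid subunit, led both Post-Tx groups, at 314 ± 18.2 and 256 ± 25.4 TPM. The lowest were Psmc6, an ATPase, at 13.2 ± 6.66 TPM in WT Pre-Tx, Psmc2, another ATPase, at 37.2 ± 26.5 in TCF-1 cKO Pre-Tx, and the chaperone Psmd9 in Post-Tx, at 45.7 ± 5.64 in WT and 41.5 ± 3.59 in TCF-1 cKO. The ratio of summed ATPases to summed non-ATPases lay between 0.525 and 0.636 in all 12 libraries, at 0.603 ± 0.0312 in WT Pre-Tx, 0.560 ± 0.0021 in TCF-1 cKO Pre-Tx, 0.560 ± 0.0306 in WT Post-Tx and 0.548 ± 0.0154 in TCF-1 cKO Post-Tx.

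Low values were not shared evenly by the libraries. Leaving out Psma8, Psmb11 and Psmc3ip, WT Pre-Tx replicate 3 was the lowest of all 12 libraries in 22 of 34 genes, WT Pre-Tx replicate 1 in 6 and TCF-1 cKO Pre-Tx replicate 1 in 4. The highest library was WT Post-Tx replicate 1 in 11 genes and TCF-1 cKO Post-Tx replicate 1 in 8.

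**Figure D2:**
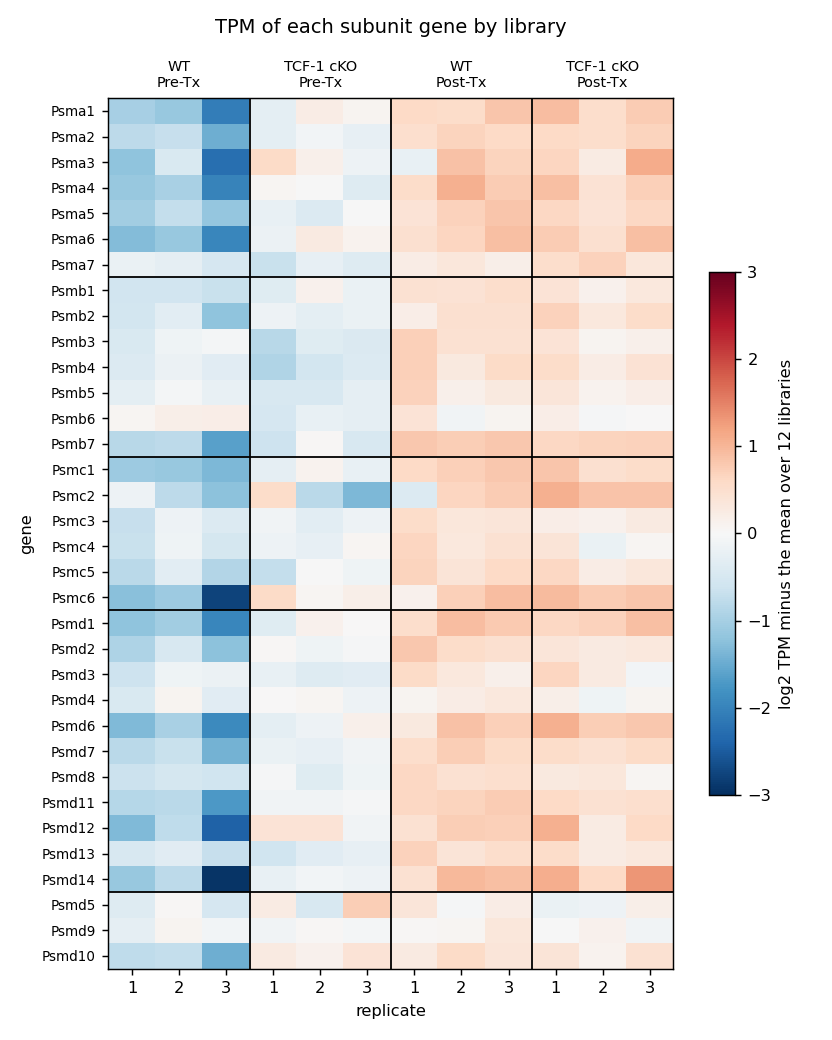
Heat map of 34 of the 37 genes (rows, grouped by role, without Psma8, Psmb11 and Psmc3ip) over the 12 libraries (columns, grouped), coloured by log2 TPM less the mean of that gene over all libraries. Most rows are lowest in WT Pre-Tx, with its replicate 3 the lowest of all in 22 of 34 genes.

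Psma8, Psmb11 and Psmc3ip were near the lower end of detection. Psma8, the alpha subunit of the testis-specific proteasome, had 2 to 46 estimated counts per library and TPM values of 0.529, 1.22 and 2.74 in WT Pre-Tx, 0.430, 0.697 and 0.681 in TCF-1 cKO Pre-Tx libraries, 0.407, 2.56 and 1.31 in WT Post-Tx and 0.225, 1.27 and 1.51 in TCF-1 cKO Post-Tx. Its counts were spread over 7 annotated transcripts with no leading one common to the groups. Psmb11, the beta subunit of the thymoproteasome of cortical thymic epithelium, had 26 to 672 counts per library. The counts of Psmc3ip ranged from 2 to 893, and its TPM values were 1.25, 6.01 and 3.76 in WT Pre-Tx, 0.275, 5.97 and 6.42 in TCF-1 cKO Pre-Tx libraries, 23.4, 18.4 and 13.0 in WT Post-Tx and 14.2, 23.3 and 14.0 in TCF-1 cKO Post-Tx. For Psmc3ip the Post-Tx libraries lay above the Pre-Tx libraries in both genotypes, yet neither contrast passed the edgeR test (log2 fold change ± SE in WT 1.87 ± 0.85, adjusted p = 0.123, TCF-1 cKO 1.39 ± 0.84, adjusted p = 0.209). Psma8 passed no test in any comparison, with log2 fold changes between -0.91 ± 0.99 in Pre-Tx (adjusted p = 0.537) and -0.08 for the interaction (adjusted p = 0.975).

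The change with transplant in WT cells took in the largest number of proteasome genes. Of 37 genes, 22 rose from WT Pre-Tx to WT Post-Tx and none fell, at an adjusted p under 0.05 by edgeR's quasi-likelihood test on estimated counts, against 11.6% of all 21434 genes tested that rose and 10.4% that fell. Those that rose were 6 of 8 alpha subunits, 3 of 8 beta subunits (Psmb1, Psmb2 and Psmb7), 3 of 6 ATPases (Psmc1, Psmc5 and Psmc6), 9 of 11 non-ATPase subunits and 1 of 3 chaperones (Psmd10). The median log2 fold change of the 37 was 0.82, beside a median of -0.41 over all genes tested. In TPM, 31 genes lay higher in all 3 WT Post-Tx libraries than in any WT Pre-Tx library (13 of 16 core and 17 of 20 regulatory), against 25.3% of the tested genes, and 0 lay lower, against 12.8%. DESeq2 and limma-voom each also called 22 higher and 0 lower. Of all 21434 genes, DESeq2 called 3148 higher and 3028 lower, and limma-voom 2692 and 2630. A value in parentheses after the levels of a gene is its log2 fold change with the standard error.

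Alpha subunits led the core particle in this contrast. Psma6 was at 95.5, 107 and 60.2 TPM in WT Pre-Tx and 327, 368 and 434 in WT Post-Tx, with a log2 fold change of 1.75 ± 0.25 and an adjusted p of 8.41e-05 (edgeR). Psma4, at 53.1, 58.9 and 29.1 TPM before and 169, 242 and 198 after transplant, had a log2 fold change of 1.73 ± 0.25 and an adjusted p of 0.000111. Psma1 rose from 126, 114 and 59.9 to 381, 365 and 449 TPM, with a log2 fold change of 1.62 ± 0.29 and an adjusted p of 0.000625. For each of the 3 genes every Post-Tx library was above every Pre-Tx library, and replicate 3 was the lowest of the WT Pre-Tx libraries. In the regulatory particle, Psmd1, a large scaffold subunit that binds ubiquitin receptors, rose from 22.6, 25.1 and 13.4 to 74.4, 98.6 and 89.1 TPM (1.83 ± 0.25, adjusted p = 5.81e-05). Psmc1, an ATPase of the unfolding ring, was at 46.1, 44.6 and 38.4 TPM in WT Pre-Tx and 148, 161 and 173 in WT Post-Tx (1.56 ± 0.23, adjusted p = 0.000101). Psmd6, a lid subunit, was at 36.1, 45.8 and 24.1 and then 110.3, 164 and 147 TPM (1.60 ± 0.27, adjusted p = 0.000349). The groups did not overlap in any of the 3 regulatory genes. Over the same contrast the 21 B cell markers all fell and the 12 proliferation markers all rose, the latter from sums of 295 to 319 CPM to 2362 to 2813 CPM, and the part of either in the rise of the proteasome genes was not tested.

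The active-site subunits differed from each other here. Psmb7 rose from 39.5, 41.3 and 22.7 TPM in WT Pre-Tx to 123, 117 and 123 in WT Post-Tx (edgeR, 1.44 ± 0.27, adjusted p = 0.000895). Psmb5 was at 297, 347 and 311 TPM before and 591, 402 and 447 after (0.23 ± 0.23, adjusted p = 0.471), and Psmb6 at 687, 742 and 763 before and 883, 608 and 703 after (-0.35 ± 0.23, adjusted p = 0.276). The TPM values of Psmb5 and Psmb7 did not overlap between the stages, those of Psmb6 did, and the fitted direction of Psmb5 turned under 2 of the scalings tried (log2 fold change -0.08 with upper-quartile scaling and -0.03 with only genes of a mean CPM of at least 10). Psmb11 was at 1.95, 0.547 and 1.02 TPM before and 0.993, 2.35 and 0.348 after, with overlap (-0.44 ± 0.65, adjusted p = 0.642).

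**Figure D3:**
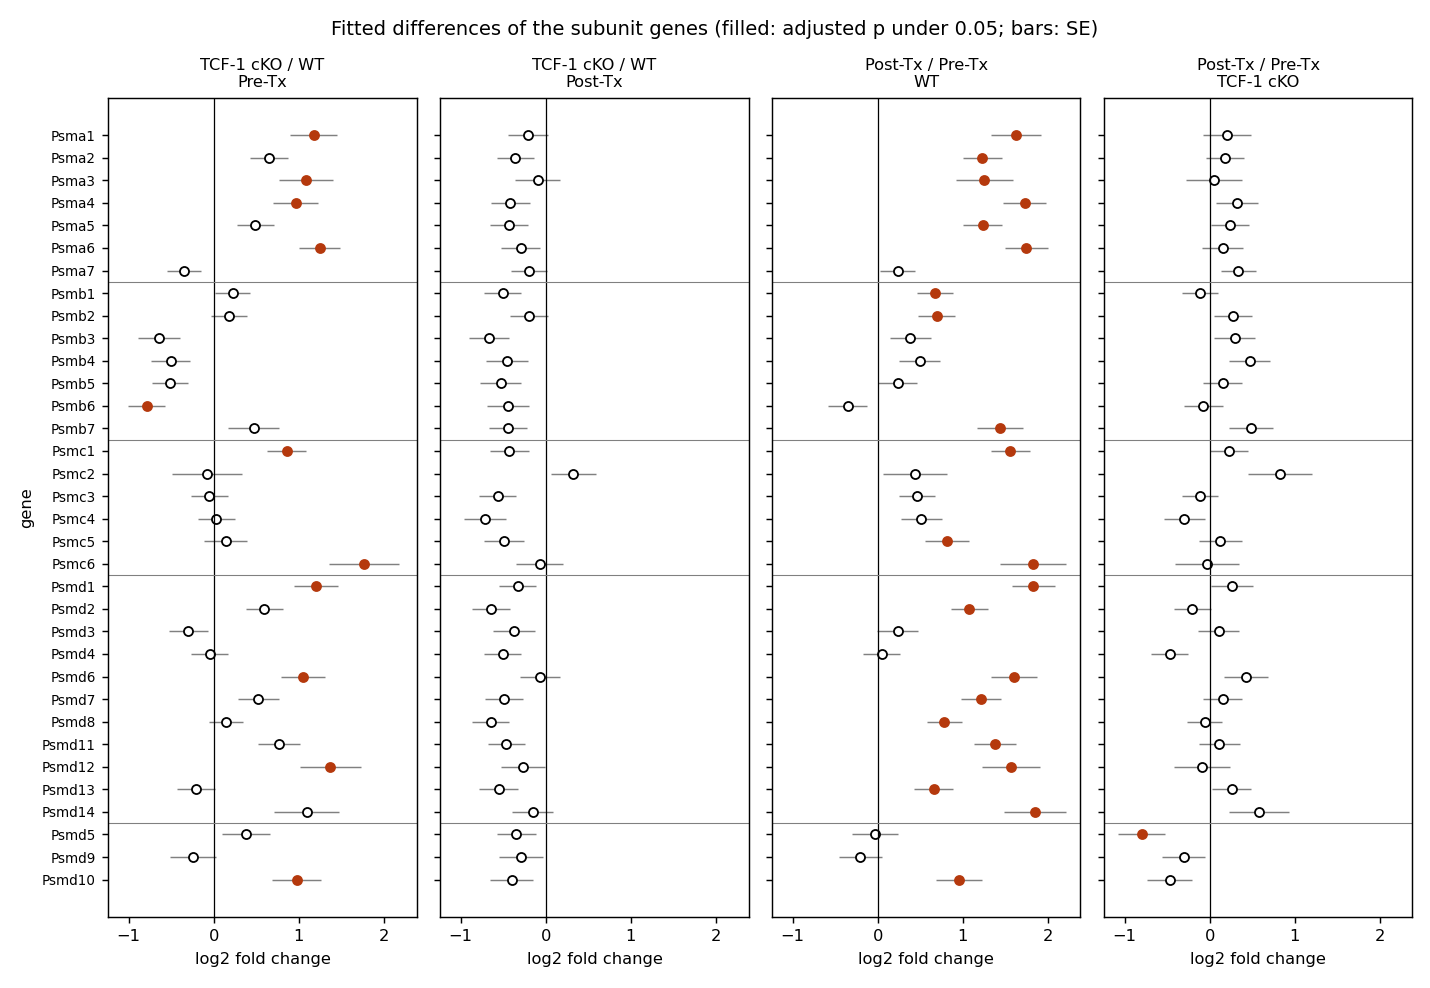
Log2 fold change of 34 genes (rows, by role, without Psma8, Psmb11 and Psmc3ip) with its standard error, from edgeR, in 4 panels for the comparisons of genotype and of stage. Filled points have an adjusted p under 0.05 and open points do not. For Post-Tx against Pre-Tx in WT 22 points are filled, all to the right of 0, whereas in TCF-1 cKO 1 is filled (Psmd5).

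In libraries labelled TCF-1 cKO, 1 gene rose with transplant (Psmb11) and 1 fell (Psmd5), against 14.2% of all genes tested that rose and 12.5% that fell. The median log2 fold change of the 37 was 0.15, beside 0.36 over all genes. In TPM, 28 genes lay higher in every TCF-1 cKO Post-Tx library than in any TCF-1 cKO Pre-Tx library (13 of 16 core and 14 of 20 regulatory), against 42.2% of all tested genes, and 0 lay lower, against 9.09%. The count of calls depended on the scaling and filter. Upper-quartile scaling called 14 members higher against 20.9% of genes, a filter at a mean CPM of at least 10 called 15 against 17.2%, limma-trend on log2(TPM + 1) called 23 against 29.1%, and GC content and length offsets called 17 against 18.8%. The same 11 genes were called higher by all 4 of these alternatives, namely Psma4, Psma5, Psma7, Psmb2, Psmb4, Psmb7, Psmc1, Psmc2, Psmd1, Psmd6 and Psmd13. Without TCF-1 cKO Pre-Tx replicate 3 or without TCF-1 cKO Post-Tx replicate 2 no member was called, against 3232 of 23209 and 2775 of 22051 genes. Without WT Pre-Tx replicate 1 or 2 or TCF-1 cKO Post-Tx replicate 1 or 3, which share the fit, 1 member was called. Genes called in those fits were 5469 of 23171, 5672 of 23656, 4828 of 23474 and 3913 of 23262.

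Psmb11 went from 0.855, 0.755 and 0.261 TPM in TCF-1 cKO Pre-Tx to 3.06, 7.56 and 5.74 in TCF-1 cKO Post-Tx, with a log2 fold change of 2.55 ± 0.69 and an adjusted p of 0.0131 (edgeR). The groups did not overlap, and the level after transplant was still among the lowest of the core genes. Over the same libraries the 1135 genes of olfactory receptors, a family of nasal sensory neurons, summed to 858 to 1511 CPM before and 4383 to 11766 CPM after transplant, and 9921 processed pseudogenes to 6237 to 8029 CPM before and 13429 to 24649 CPM after. Their part in the values of Psmb11 was not tested. Psmd5, a chaperone that holds regulatory ATPases before assembly, was at 51.4, 31.2 and 72.3 TPM before and 37.6, 39.3 and 48.9 after, which overlap, and it fell by the edgeR test (-0.80 ± 0.27, adjusted p = 0.0393). Within the core particle, Psmb4 and Psmb7 had the next smallest p-values after Psmb11 and did not pass. Psmb4, at 114, 145 and 160.1 TPM before and 314, 247 and 287 after, had a log2 fold change of 0.47 ± 0.24 and an adjusted p of 0.15, and Psmb7, at 46.1, 72.5 and 50.7 and 109, 112 and 114 TPM, had a log2 fold change of 0.48 ± 0.26 and an adjusted p of 0.164. Both were higher in all 3 Post-Tx libraries in TPM. In the regulatory particle, Psmd4 was at 201, 208 and 179 TPM before and 223, 181 and 209.8 after (-0.47 ± 0.21, adjusted p = 0.103), with overlap. Psmc2 was at 67.4, 26.1 and 17.98 TPM before and 95.0, 82.2 and 83.1 after (0.83 ± 0.38, adjusted p = 0.107), and TCF-1 cKO Pre-Tx replicate 1 stood far above its other 2 replicates. Psmb5 (0.15 ± 0.23, adjusted p = 0.624) and Psmb6 (-0.08 ± 0.23, adjusted p = 0.818) did not pass either, and the sign of Psmb6 turned under each of the 4 alternatives named above.

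Before transplant, the libraries labelled TCF-1 cKO had more RNA of several alpha and regulatory subunits than WT. Of 37 genes, 10 were higher and 1 was lower in TCF-1 cKO Pre-Tx (edgeR, adjusted p under 0.05), against 8.52% of all 17021 genes tested that were higher and 5.65% that were lower. Higher were 4 of 8 alpha subunits (Psma1, Psma3, Psma4 and Psma6), 2 of 6 ATPases (Psmc1 and Psmc6), 3 of 11 non-ATPase subunits (Psmd1, Psmd6 and Psmd12) and 1 of 3 chaperones (Psmd10), and the gene that was lower was the beta subunit Psmb6. The median log2 fold change was 0.80 for the alpha subunits and -0.51 for the beta subunits, and it was 0.22 over the 37 genes (-0.14 with upper-quartile scaling), beside -0.11 over all genes. In TPM, 20 genes lay higher without overlap, against 23.4% of the tested genes, and 2 lay lower, against 15.6%, so that the share of members higher was 9 of 16 in the core and 11 of 20 in the regulatory particle.

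Psma6 had 95.5, 107 and 60.2 TPM in WT Pre-Tx and 206, 280.5 and 249 in TCF-1 cKO Pre-Tx, with a log2 fold change of 1.24 ± 0.24 and an adjusted p of 0.0126 (edgeR). Psma1 had 126, 114 and 59.9 and 205, 294 and 266 TPM, with a log2 fold change of 1.17 ± 0.27 and an adjusted p of 0.0207. In both genes each library labelled TCF-1 cKO was above each WT library. Psmb6 went the other way, at 687, 742 and 763 TPM in WT and 467, 561 and 544 in TCF-1 cKO, again without overlap (-0.79 ± 0.22, adjusted p = 0.0356). Among regulatory genes, Psmd1 was at 22.6, 25.1 and 13.4 and 40.3, 56.7 and 51.9 TPM (1.20 ± 0.26, adjusted p = 0.0167). Psmc6, an ATPase, was at 16.04, 17.9 and 5.56 and 56.3, 39.5 and 42.7 TPM (1.77 ± 0.41, adjusted p = 0.021). Psmd6 was at 36.1, 45.8 and 24.1 and 73.0, 80.2 and 100.2 TPM (1.05 ± 0.26, adjusted p = 0.0257). The WT libraries lay below the TCF-1 cKO libraries in each of these 3, and WT Pre-Tx replicate 3 was the lowest of all. The other catalytic subunits did not pass. Psmb5 was at 297, 347 and 311 TPM in WT and 262, 258 and 299.6 in TCF-1 cKO (-0.51 ± 0.21, adjusted p = 0.11), with overlap at its edge, and Psmb7 at 39.5, 41.3 and 22.7 and 46.1, 72.5 and 50.7 TPM without overlap (0.47 ± 0.30, adjusted p = 0.288). Psmb11 was at 0.855, 0.755 and 0.261 TPM in TCF-1 cKO Pre-Tx, overlapping WT (-1.14 ± 0.75, adjusted p = 0.301).

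The Pre-Tx calls depended on single libraries. Without WT Pre-Tx replicate 1, no member was called, and 14 genes of 17728 passed in all, or 0.079%. The count was 9 without WT Pre-Tx replicate 2, 2 without WT Pre-Tx replicate 3, and 3, 2 and 4 without TCF-1 cKO Pre-Tx replicates 1, 2 and 3. Over all genes these fits called 2611 of 18651, 981 of 18033, 517 of 19037, 967 of 19003 and 1236 of 19063 in the same order. T cell markers also differed between these groups, with 8 of 14 lower in TCF-1 cKO Pre-Tx, while 9 of 21 B cell markers and 6 of 12 proliferation markers were higher. The part of these differences in the proteasome genes was not tested.

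GC content of the transcripts moved with the change of the members before transplant. Over the 34 genes other than Psma8, Psmb11 and Psmc3ip, Spearman's rho between the GC content of the main transcript and the log2 fold change of TCF-1 cKO over WT was -0.84 in Pre-Tx, given as a description over genes that share libraries, and over the 9510 genes whose mean CPM reached 10 it was -0.48. The 17 members with the lower GC content (37.0% to 49.5%) held all 10 that were called higher and had a median log2 fold change of 0.97. For the 17 with the higher GC content (49.7% to 58.3%) that median was -0.05, and none was called higher. Alpha subunits had a median GC content of 45.0% and beta subunits of 52.2%, so role and GC content overlap. With offsets for GC content and length in the fit, an alternative added after the data were seen, 1 member was called higher (Psmc6, log2 fold change 1.02, adjusted p = 0.047), against 1.77% of genes, and the median log2 fold change of the 34 members moved from 0.42 to 0.06. The offsets moved the median of all genes too, so that over all 37 members the median less that of all genes was 0.33 without and 0.29 with them. In WT, the rho for the change with transplant was -0.74, 15 of the 17 lower-GC and 7 of the 17 higher-GC members rose, and the median moved from 0.88 to 0.50 with the offsets, while the median of the 37 less that of all genes was 1.23 without and 1.13 with them. In TCF-1 cKO that rho was -0.14, in Post-Tx between genotypes -0.56, and for the interaction 0.73, where the median of the 37 less that of all genes was -1.18 without and -1.07 with the offsets.

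**Figure D4:**
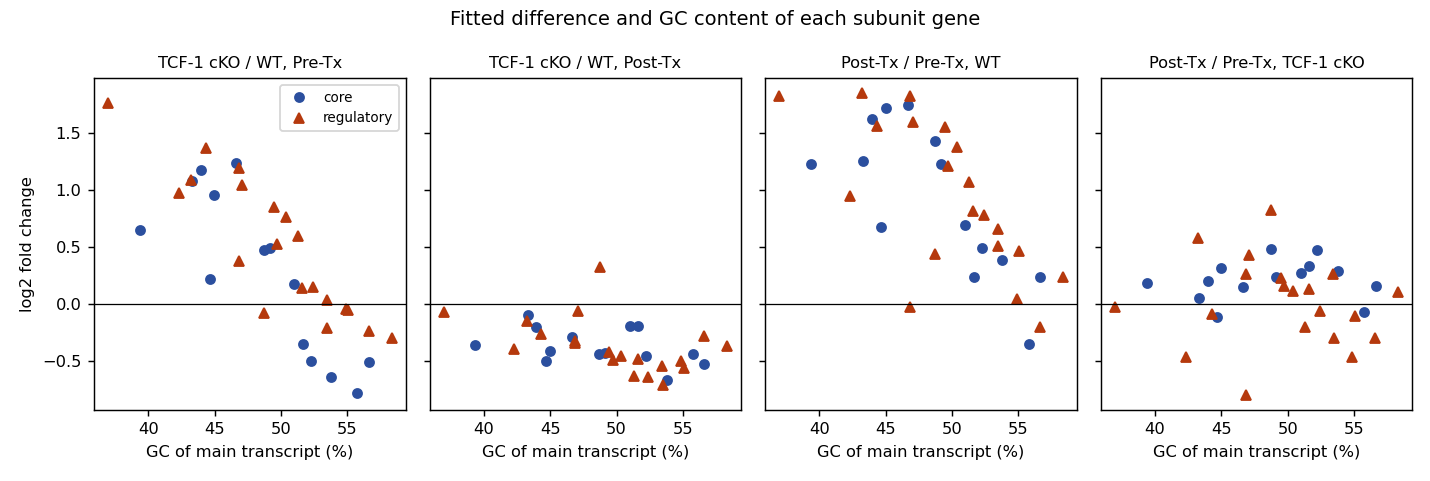
Log2 fold change in 4 comparisons (vertical axes) against the GC content in percent of the main transcript (horizontal axis) for 34 proteasome genes, coloured by particle. Values fall with GC content most clearly for genotype in Pre-Tx and for transplant in WT, with Spearman's rho of -0.84 and -0.74.

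After transplant, no member was called between the genotypes by edgeR's quasi-likelihood test, against 3.52% of 19287 genes that were higher in TCF-1 cKO and 3.13% that were lower. At an unadjusted p under 0.05 there were 12 members, and 6184 genes in all. The median log2 fold change of the members was -0.43, beside 0.09 over all genes, and 2 of 37 values were positive. DESeq2 and limma-voom each called 1 member higher (Psmb11) and 4 lower (Psmb3, Psmc4, Psmd2 and Psmd8), against 9.88% and 9.74% of genes higher and lower by DESeq2 and 8.05% and 6.73% by limma-voom. In TPM, 3 members lay higher without overlap, against 29% of tested genes, and 7 lay lower, against 7.56%. Without WT Post-Tx replicate 2 the edgeR test called 4 members, 1 higher and 3 lower, against 1922 higher and 1287 lower of 21202 genes. Without TCF-1 cKO Post-Tx replicate 1 it called 1 member, against 1314 of 21528 genes. With the replicate number as a block, 1 was higher and 7 were lower, against 7.58% and 9.31% of genes in that fit.

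The single values were as follows in Post-Tx. Psmb11 was at 0.993, 2.35 and 0.348 TPM in WT and 3.06, 7.56 and 5.74 in TCF-1 cKO (edgeR, 1.82 ± 0.57, adjusted p = 0.0565), without overlap. Psmb3, which lines the inner ring, was at 1175, 981 and 984 TPM in WT and 958, 754 and 804 in TCF-1 cKO, where every WT library was higher (-0.67 ± 0.23, adjusted p = 0.0736). Psmb1, a non-catalytic beta subunit, was at 273, 269 and 289 and 262, 216 and 247 TPM, also without overlap (-0.51 ± 0.22, adjusted p = 0.128). Lid and ATPase genes showed values of the same size. Psmd8 was at 335, 300.1 and 307 TPM in WT and 268, 273 and 226 in TCF-1 cKO (-0.65 ± 0.22, adjusted p = 0.0715), and Psmd2, a scaffold subunit, at 225, 189 and 179.7 and 166, 154 and 160.2 TPM (-0.64 ± 0.22, adjusted p = 0.0757). Neither overlapped between the genotypes. Psmc4, an ATPase, was at 264, 209 and 233 TPM in WT and 221, 146 and 177 in TCF-1 cKO, with overlap between 1 library of each group (-0.71 ± 0.25, adjusted p = 0.0733). The catalytic subunits Psmb5 (-0.53 ± 0.24, adjusted p = 0.145), Psmb6 (-0.44 ± 0.24, adjusted p = 0.206) and Psmb7 (-0.45 ± 0.23, adjusted p = 0.179) did not pass, and the signs of Psmb5 and Psmb6 turned with GC content and length offsets. In these libraries 11 of 14 T cell and 1 of 21 B cell markers were lower in TCF-1 cKO Post-Tx, and 5 of 10 erythroid markers were higher. Of 12 macrophage, monocyte and neutrophil markers 0 were called, though their sum was higher in TCF-1 cKO without overlap. Whether these differences bear on the lower fitted values was not tested.

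The interaction asks whether the change with transplant differed between the genotypes. It shares all libraries with the comparisons above and is a test of the difference itself. For 15 members the change was smaller in TCF-1 cKO than in WT, and for 1 it was larger, against 11.5% and 17.1% of 21434 genes in the same directions. The 15 were 5 alpha subunits (Psma1, Psma2, Psma4, Psma5 and Psma6), 2 ATPases (Psmc1 and Psmc6), 7 non-ATPase subunits (Psmd1, Psmd2, Psmd6, Psmd7, Psmd8, Psmd11 and Psmd12) and the chaperone Psmd10, and the 1 was Psmb11. Without TCF-1 cKO Post-Tx replicate 2 the calls numbered 7, against 3013 of 22051 genes, and without WT Post-Tx replicate 3 they numbered 8, against 3511 of 23220. In the same interaction 7 of 12 proliferation markers, 5 of 21 B cell markers and 2 of 14 T cell markers were lower and 5 of 10 erythroid markers were higher, and their part in it was not tested. The lower calls were 2 with upper-quartile scaling (Psma6 and Psmd1, against 3.36% of genes), 2 under the filter on mean CPM (again Psma6 and Psmd1, against 6.83%) and 2 with GC content and length offsets (Psma6 and Psmc6, against 3.63%). Higher calls were 3 with upper-quartile scaling and 3 with the offsets, namely Psma7, Psmb6 and Psmb11 in each. All genes called higher were 4865 of 21434 and 4599 of 21418. Under the filter on mean CPM 0 members were higher, against 720 of 9522 genes.

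Psma6 had 206, 280.5 and 249 TPM in TCF-1 cKO Pre-Tx and 399, 326 and 436 in TCF-1 cKO Post-Tx beside its larger change in WT, with an interaction of -1.59 ± 0.35 on the log2 scale (edgeR, adjusted p = 0.00585). Psma4 had 121, 115 and 88.6 and 217, 158 and 191 TPM in the same groups (-1.41 ± 0.35, adjusted p = 0.011), and Psma1 had 205, 294 and 266 and 476, 362 and 425 TPM (-1.43 ± 0.40, adjusted p = 0.0174). All 3 were still higher after transplant than before in each TCF-1 cKO library, by a smaller ratio than in WT. Psmd1 was at 40.3, 56.7 and 51.9 and 79.6, 83.9 and 96.2 TPM (-1.57 ± 0.35, adjusted p = 0.00645), and Psmc1 at 80.8, 105 and 84.2 and 173, 138 and 143 TPM (-1.33 ± 0.32, adjusted p = 0.00851). Psmd2 was at 67.5, 91.8 and 55.0 TPM in WT Pre-Tx and 132, 117 and 125 in TCF-1 cKO Pre-Tx, which gives with its Post-Tx values above -1.28 ± 0.31 (adjusted p = 0.00896). For Psmb11 the interaction was 2.99 ± 0.94 (adjusted p = 0.0274), and Psmb5 (-0.08 ± 0.32, adjusted p = 0.868), Psmb6 (0.28 ± 0.33, adjusted p = 0.527) and Psmb7 (-0.95 ± 0.37, adjusted p = 0.0607) did not pass. Psmb6 did pass by edgeR with upper-quartile scaling (0.97, adjusted p = 0.0367) and with GC content and length offsets (0.56, adjusted p = 0.0396). The sign of Psmb5 turned with upper-quartile scaling, a mean CPM of at least 10, TPM values, protein_coding transcripts alone and the offsets.

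All the fitted fold changes are relative to the scaling of the libraries. Upper-quartile scaling in place of TMM moved the median log2 fold change of all genes by -0.36 in Pre-Tx, 0.28 in Post-Tx, -0.29 for transplant in WT, 0.38 for transplant in TCF-1 cKO and 0.67 for the interaction, and the median of the members moved with it. A change of scaling alone shifts all genes of a comparison by about the same amount. Differences from the median of all genes are thus bound to be near equal under both scalings, and their match is no check on the result. Relative to the median of all genes, the members' median was 0.33 with either scaling in Pre-Tx. It was -0.52 with TMM and -0.53 with upper-quartile scaling in Post-Tx, 1.23 and 1.22 for transplant in WT, -0.20 with both in TCF-1 cKO, and -1.18 and -1.17 for the interaction. With only genes of a mean CPM of at least 10, the same differences were 0.16, -0.05, 0.59, 0.54 and -0.21, so in TCF-1 cKO the sign of the members' change with transplant against the median gene turned with the set of genes that it was set against.

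The proportions of RNA among the subunit genes differed most between WT Pre-Tx and the other groups. They are no measure of the protein make-up of the particles. Alpha and beta genes also differ in GC content, at medians of 45.0% and 52.2%, and its part in these ratios was not tested. The ratio of summed alpha to summed beta TPM was 0.575, 0.547 and 0.383 in WT Pre-Tx, 0.982, 0.913 and 0.840 in TCF-1 cKO Pre-Tx libraries, 0.636, 0.953 and 0.873 in WT Post-Tx, and 0.895, 0.995 and 1.03 in TCF-1 cKO Post-Tx. All WT Pre-Tx libraries lay below all others, while the other 3 groups overlapped. For the pair of Psma6 and Psmb6 the ratio was 0.121 ± 0.0362 in WT Pre-Tx, 0.466 ± 0.0303 in TCF-1 cKO Pre-Tx, 0.530 ± 0.139 in WT Post-Tx and 0.564 ± 0.0798 in TCF-1 cKO Post-Tx. The core to regulatory ratio was 2.66 ± 0.174 in WT Pre-Tx, 2.08 ± 0.167 in TCF-1 cKO Pre-Tx, 2.20 ± 0.00383 in WT Post-Tx and 2.35 ± 0.0584 in TCF-1 cKO Post-Tx. As a share of its particle, 13 of 16 core genes differed without overlap between the Pre-Tx genotypes, 8 higher and 5 lower in TCF-1 cKO, and of 20 regulatory genes 9 were higher and 5 lower. In Post-Tx 3 of 16 core and 3 of 20 regulatory genes did so. Such shares have no counterpart over all genes, and the Pre-Tx background for TPM itself was 23.4% higher and 15.6% lower. Psmb6 made up 21.5% ± 2.56 of core TPM in WT Pre-Tx and 13.5% ± 0.507 in TCF-1 cKO Pre-Tx. The same share of Psma6 was 2.53% ± 0.524 in the first and 6.29% ± 0.558 in the second.

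Each standard catalytic gene was set beside its immunoproteasome counterpart. Psmb8, the counterpart of Psmb5, was at 1321 ± 111 TPM in WT Pre-Tx, 1107 ± 147 in TCF-1 cKO Pre-Tx, 1880 ± 203 in WT Post-Tx and 1550 ± 101 in TCF-1 cKO Post-Tx. The ratio of the 3 standard genes (Psmb5, Psmb6 and Psmb7) to the 3 immunoproteasome genes was 0.533 ± 0.0210 in WT Pre-Tx, 0.495 ± 0.0206 in TCF-1 cKO Pre-Tx, 0.441 ± 0.0298 in WT Post-Tx and 0.495 ± 0.0221 in TCF-1 cKO Post-Tx. WT Pre-Tx and WT Post-Tx did not overlap in it, while the TCF-1 cKO stages did. Between the genotypes it was lower in TCF-1 cKO in Pre-Tx and higher in Post-Tx, without overlap at either stage. By pair, the ratio of Psmb6 to Psmb9 was 1.98 ± 0.0185 in WT Pre-Tx and 1.21 ± 0.0558 in WT Post-Tx, that of Psmb7 to Psmb10 was 0.102 ± 0.0388 and 0.233 ± 0.0250, and that of Psmb5 to Psmb8 was 0.241 ± 0.00989 and 0.254 ± 0.0260. In WT the first pair fell and the second rose without overlap, and the third overlapped. In TCF-1 cKO each pair overlapped between the stages. None of the 3 immunoproteasome genes was called in any of the comparisons by edgeR, and for Psmb8 the adjusted p was 0.0943 for genotype in Pre-Tx (log2 fold change -0.53 ± 0.20).

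**Figure D5:**
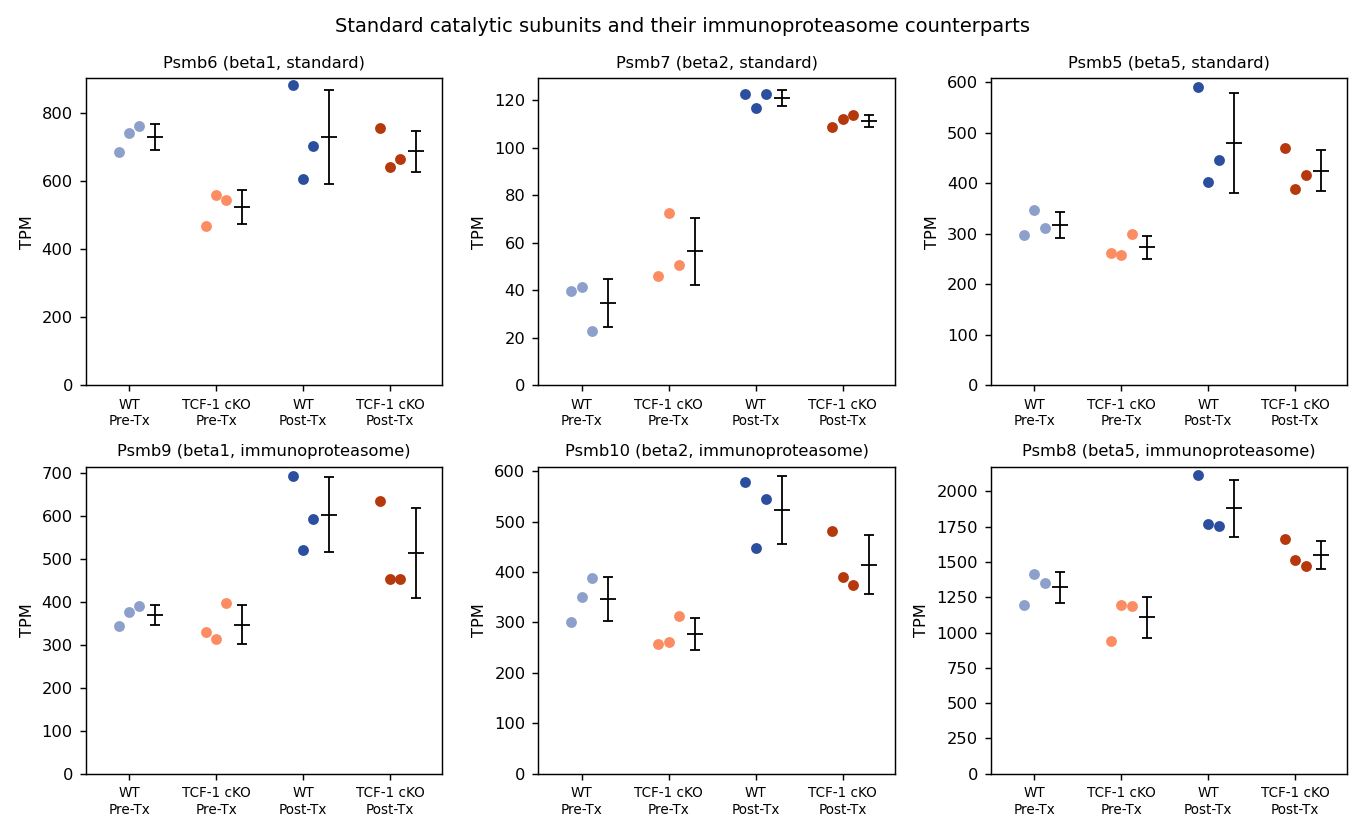
TPM of the standard catalytic genes Psmb5, Psmb6 and Psmb7 and of their immunoproteasome counterparts Psmb8, Psmb9 and Psmb10 in the 12 libraries, by group. Points are libraries and bars are means with SD over 3 libraries. Psmb7 is the lowest of the 6 in each group and rises from 34.5 TPM in WT Pre-Tx to 121 TPM in WT Post-Tx.

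Of 42 other genes of the ubiquitin-proteasome pathway, 40 were tested. For transplant in WT, 10 rose and 1 fell, with a median log2 fold change of 0.47, against 11.6% and 10.4% of all genes. They included Pomp, which completes core assembly (1.13, adjusted p = 0.0019 by edgeR), Sem1, a small lid subunit (1.32, adjusted p = 0.00113), Psme2, part of the interferon-inducible cap (1.02, adjusted p = 0.00216), and Vcp, the ATPase that extracts ubiquitinated proteins (1.46, adjusted p = 0.000154). In TCF-1 cKO 2 rose with transplant and 7 fell, with a median of -0.28, against 14.2% and 12.5% of all genes. Pomp rose there too (0.70, adjusted p = 0.0319), and Nfe2l2, a transcription factor of the oxidative stress response that binds proteasome promoters, fell by 1.91 on the log2 scale (adjusted p = 0.000347). Between the genotypes in Pre-Tx 6 were higher in TCF-1 cKO and 1 was lower, against 8.52% and 5.65% of all genes. Of the 7 genes that control proteasome transcription, 4 were among them (Nfe2l2 1.01, adjusted p = 0.0327; Nfyb, Ngly1 and Ddi2). In Post-Tx, the ubiquitin gene Ubb was lower in TCF-1 cKO (-0.79, adjusted p = 0.0486), and 0 of the 40 were higher, against 3.52% of all genes. For the interaction 11 of the 40 were lower and 0 higher, against 11.5% and 17.1% of all genes.

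Some of these counts could be shared with other genes. By alignment over at least 200 bases at 90% identity or more, 16 members had 30 matches in other genes, of which 24 were processed pseudogenes. The matches also included the protein_coding genes Nek6, Sirt3 and Gm21972, through identical stretches of 255, 329 and 305 bases. Counts of Psmb7 may be shared with its neighbour Nek6, whose counts were 14.5% to 32.5% of those of Psmb7 in the 4 groups, and those of Psmd13 with Sirt3, at 4.71% to 19.0%. For Psma3, 50.8% to 57.6% of TPM lay in a transcript marked for nonsense-mediated decay and 22.6% to 24.7% in a retained intron, so the gene level does not stand for a coding transcript. By TPM, 90.1% ± 1.55 of the core signal in WT Pre-Tx was in protein_coding transcripts, and in TCF-1 cKO Post-Tx 84.3% ± 2.54.

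Promoter sequences are shown because several regulatory genes moved together. RefSeq windows of 250 bases before and 50 after the start (GRCm38.p6) were matched by symbol for 30 of the 37 genes, in 32 windows. Both strands were searched for 4 letter strings. CCGGAAG, a form of the site of ETS factors, was in 37.5% of the member windows and 8.86% of all 32851 windows, in 9 of 17 regulatory genes with a window (Psmc1, Psmc2, Psmc6, Psmd2, Psmd4, Psmd6, Psmd11, Psmd12 and Psmd13), in 1 of 12 core genes (Psma6) and in Psmc3ip. TGACNNNGC, the core of the antioxidant response element that Nfe2l1 and Nfe2l2 bind, was in 15.6% against 12.4%, CCAAT, bound by the NF-Y factors, in 40.6% against 37.4%, and CTTTGAT, a form of the site of TCF-1 and its relatives, in 6.25% against 3.73%. The windows of all genes were not limited to expressed genes or matched for GC content. Whether such genes carry these strings as often as the members was not tested. The stretches below are 5′ to 3′ on the strand of the gene, with the match in capitals. They are the CCGGAAG match of 4 regulatory genes that rose with transplant in WT (CTTCCGG where it lies on the other strand), the TGACNNNGC match of Psmb6, and the CTTTGAT match of Psmd10, and each match is a description and not a binding site.
Psmc1, chr12:100110162-100110191, + strand: ttggtggatgcaCTTCCGGcggtggcgatt
Psmc6, chr14:45329712-45329741, + strand: gaggcgggccagCCGGAAGgggcggagcca
Psmd6, chr14:14120973-14121002, - strand: ccagagacgcgaCCGGAAGtcagactggcg
Psmd12, chr11:107479498-107479527, + strand: gatgagcgggcgaCTTCCGGtgcgagtgac
Psmb6, chr11:70525327-70525356, + strand: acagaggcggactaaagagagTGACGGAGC
Psmd10, chrX:140956723-140956752, - strand: gaatttctagtaCTTTGATtggtcgccgga
Each stretch of 30 bases lies before the RefSeq start, with the first base of the match 28 bases before it for Psmc1, 100 for Psmc6, 45 for Psmd6, 17 for Psmd12, 9 for Psmb6 and 29 for Psmd10. Among the 4 genes shown with CCGGAAG, Psmd12, a lid subunit, was at 17.3, 25.8 and 8.03 TPM in WT Pre-Tx, 57.7, 57.4 and 40.3 in TCF-1 cKO Pre-Tx libraries, 59.7, 72.4 and 70.9 in WT Post-Tx and 90.2, 51.6 and 65.8 in TCF-1 cKO Post-Tx, with the WT Pre-Tx libraries below all others. Psmc6, at 41.9, 62.7 and 71.7 TPM in WT Post-Tx and 73.1, 64.5 and 67.9 in TCF-1 cKO Post-Tx, showed the same order.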

How the data were processed

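RNA was measured in 12 libraries, 3 in each group of genotype and stage, and groups were taken from the sample labels. Per the labels and the study's methods, libraries were made with SMART-Seq HT and Nextera XT and sequenced as read pairs on a NovaSeq instrument, and the authors ran kallisto 0.46.2 to assign the pairs to transcripts. The deposited estimated counts carry no normalization, and the deposited TPM values are those counts divided by effective length and scaled to a fixed total. The labels name mm9 and limma, and the sources used here do not give the annotation release.

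Transcript identifiers, stripped of their version, matched GENCODE M21 (GRCm38) for 99.1% of 117497, and the 1069 others, with at most 0.386% of counts, were left out. Counts and TPM were summed per gene, and counts were rounded. In R 4.3.3, edgeR 4.0.16 was used for its filter on low counts, TMM and the quasi-likelihood test, fitted on 6 libraries for each genotype comparison and on all 12 for stage and interaction. P-values were adjusted by Benjamini-Hochberg over all genes tested, and a gene was called at an adjusted p under 0.05. Errors of log2 fold changes are standard errors. Depth limits the precision of the lowest genes, and libraries at 2 to 46 counts of a gene give little. Alternatives were DESeq2 1.42.0, limma 3.58.1 (voom on counts, trend on TPM), other scalings and filters, protein_coding transcripts alone, the replicate number as a block, leaving out each library, and, added after the data were seen, offsets for GC content and length. Same-numbered libraries were not taken as pairs, since nothing in the labels ties them and their residuals correlated between -0.175 and 0.248. No library was a copy of another (Pearson's r between replicates 0.869 to 0.955). Scripts were tested on simulated data, and matplotlib 3.10.9, numpy 2.4.6 and pandas 2.3.3 under Python 3.11.15 served for figures and tables. The subunits, gene lists and tests were chosen with earlier results of these data known. Genes named in each comparison are the 3 of each particle with the smallest p and, throughout, Psmb5, Psmb6, Psmb7, Psma8, Psmb11 and Psmc3ip, and further genes were named after their values were seen. Results for some genes are not reported here.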

Additional observations from a re-analysis of the deposited data

Results flagged for a closer look

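The results below were picked out because the change with transplant differed between the genotypes by the interaction test of edgeR (adjusted p under 0.05). In all, 16 of the 37 members were called, against 6134 of 21434 genes. The difference in log2 fold change, TCF-1 cKO less WT, was -1.59 for Psma6, -1.41 for Psma4 and -1.43 for Psma1 among the alpha subunits, and -1.57 for Psmd1, -1.33 for Psmc1 and -1.28 for Psmd2 in the regulatory particle. For Psmb11 it was 2.99. In the first 6 genes WT Pre-Tx held the lowest libraries, and in Psmb11 TCF-1 cKO Post-Tx held the highest.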

How the results depend on the processing

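The count of members called changed by more than 1.5 times as follows. In Pre-Tx, where 11 were called, it was 6 with protein_coding transcripts alone and 1 with GC content and length offsets, and it ranged from 0 to 9 when single libraries were left out. All genes called were 1331 of 14440 and 1643 of 17006, and 14 to 2611 with libraries left out. Upper-quartile scaling kept it within 1.5 times there, at 8, yet with 3 higher and 5 lower, against 636 and 2070 of 17021 genes. A mean CPM of at least 10 left it at 11, with 6 higher and 5 lower, against 977 and 1105 of 9048 genes. In Post-Tx, where none was called, it was 1 without the filter on low counts, 5 with DESeq2, 5 with limma-voom and 8 with the replicate block, and 0 to 4 with libraries left out. Genes called in all were 2205 of 32825, then 3785, 2850 and 3257 of 19287, and 6 to 3209 with libraries left out. For transplant in TCF-1 cKO, where 2 were called, it was 14 with upper-quartile scaling, 15 with a mean CPM of at least 10, 23 with TPM, 1 with protein_coding transcripts alone, 1 with the replicate block, 18 with the offsets, and 0 to 2 with libraries left out. In that order, genes called in all were 6129 of 21434, 3163 of 9522, 6178 of 16723, 3771 of 17068, 4676 of 21434 and 5889 of 21418. With libraries left out they were 2775 to 6197. For the interaction, where 16 were called, it was 5 with upper-quartile scaling, 2 with a mean CPM of at least 10, 5 with the offsets, and 7 to 20 with libraries left out. Genes called in all were 5585 of 21434, 1370 of 9522 and 5377 of 21418, and 3013 to 7297 with libraries left out. Of the 5 under upper-quartile scaling and the 5 under the offsets, 3 were higher and 2 lower in each. For transplant in WT it stayed within 1.5 times of 22 under each alternative run. With the replicate block it was 11 in Pre-Tx, 18 for transplant in WT and 13 for the interaction. Genes called in all by those fits were 2067 of 17021, 4137 of 21434 and 5130 of 21434. In CPM in place of TPM the ratio of Post-Tx to Pre-Tx in WT was 1.66 for the core and 1.84 for the regulatory particle. The cause of these moves was not tested. Of the settings run for single named genes, 944 kept direction and call, 66 lost the call, 56 gained it and 41 changed sign. The changes of sign, as log2 fold changes, were -0.00072 for Psmb7 (offsets), 0.066 (no filter) and 0.040 (all 12 libraries in 1 fit) for Psmc3ip in Pre-Tx. In Post-Tx they were 0.043 for Psmb5 and 0.10 for Psmb6 (offsets), and for transplant in WT -0.083 and -0.028 for Psmb5 (upper quartile, mean CPM). For transplant in TCF-1 cKO, Psmb6 gave 0.30 (upper quartile), 0.27 (mean CPM), 0.39 (TPM), 0.15 (protein_coding) and 0.29 (offsets), and with TPM Psma8 gave 0.26 and Psmd4 0.060. For the interaction Psmb5 gave 0.61, 0.53, 0.058, 0.14 and 0.20 in the same order of settings, Psmb6 -0.0067 (no filter), Psma8 0.68 (upper quartile) and 0.30 (TPM), and Psmc3ip 0.20 (upper quartile), 0.42 (limma-voom) and 0.25 (offsets). With single libraries left out, the range was -0.51 to 0.54 for Psmc3ip in Pre-Tx, -0.91 to 0.22 for Psma8 and -1.16 to 0.32 for Psmb11 for transplant in WT, -0.22 to 0.17 for Psmb6 and -1.44 to 0.026 for Psma8 in TCF-1 cKO, and -0.37 to 0.11 for Psmb5, -0.073 to 0.45 for Psmb6 and -0.95 to 0.37 for Psma8 in the interaction.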
